A study of Mus musculus with 24 samples.

Results

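Colonocytes, the absorptive cells of the large intestine, recover salt and water with a set of transport proteins, and 36 genes of that set were followed across the series. The genes were picked by symbol for their role in ion, water or solute transport, with earlier results of these data known. Shares over all genes are therefore given as a background and not as a test of the set. All 36 were found among the 55487 genes measured. Messenger RNA was sequenced in whole colon and in colorectal tumours of C57BL/6 mice, either wild type (WT) or with Axin1, a scaffold of the complex that degrades beta-catenin, knocked out in intestinal epithelium (KO). Colon came from untreated mice with no disease and from mice killed at day 7 or day 13 of colitis induced with dextran sulfate sodium (DSS), a polymer that injures the colonic epithelium. Tumours came from mice given the carcinogen azoxymethane (AOM) together with DSS. The 8 groups thus crossed 2 genotypes with 4 conditions, with 3 biological replicates in each. The sources used here do not give the promoter that drove the deletion, the age and sex of the mice, the DSS dose and schedule, or whether a tumour library came from 1 tumour or several. Tumours were set against the untreated colon, since other tissue of the AOM/DSS mice was not analysed here.

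The surface colonocyte takes up sodium chloride by running sodium-proton exchangers beside chloride-bicarbonate exchangers, which carbonic anhydrases supply with acid and base. In the distal colon an aldosterone-driven sodium channel takes up the remaining sodium, and water follows through the cells and between them. Cells of the crypt secrete chloride instead, entering it on the blood side by a cotransporter, releasing it to the lumen by Cftr, and holding the driving voltage with potassium channels. The gut peptides guanylin and uroguanylin act through a cyclic GMP receptor to hold back sodium uptake and raise secretion.

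Levels are given within a gene as CPM, the counts scaled to a common library total with a normalization factor, and between genes as TPM, the transcript abundance that also accounts for gene length. Changes are log2 fold changes with their standard error, and a gene was called where edgeR's quasi-likelihood test gave an adjusted p under 0.05. Library totals ran from 15.7 M to 28.1 M expected counts. Axin1 lay at 13.5 to 19.7 CPM in the 12 KO libraries and at 47.4 to 58.8 CPM in the 12 WT libraries, so every library fitted its genotype label. Sex was not labelled, but Ddx3y (Y-linked) and Xist (expressed in females) put all WT day 13 libraries with males (Ddx3y 31.0 to 38.1 CPM) and all KO day 13 libraries with females (Xist 591 to 1099 CPM). WT day 7 was all female, untreated KO all male, and the other groups were mixed. In 4 libraries Hoxd13, a Hox gene of the hind end of the body, lay under 20 CPM, namely replicate 3 of untreated WT, replicate 3 of untreated KO, replicate 1 of WT day 7 and replicate 1 of the WT tumours. Keratin 14, a marker of squamous epithelium, exceeded 100 CPM in the colon libraries WT day 13 replicate 3 and KO day 13 replicate 1. All 8 epithelial markers were detected in every library.

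In untreated WT colon the carbonic anhydrases led the set per length. Car1, a cytosolic carbonic anhydrase, averaged 2332 ± 560 TPM (SD, n = 3) and Car4, which is anchored on the apical membrane, averaged 1663 ± 198 TPM. Car2, also cytosolic, followed at 1457 ± 41.4 TPM, the sodium pump subunit gene Atp1b1 at 1260 ± 60.9 TPM, and Slc26a3, the apical chloride-bicarbonate exchanger whose loss causes chloride diarrhoea, at 918 ± 148 TPM. The ranges of Car4 and Car2 were close to each other and those of Car1 and Car4 overlapped. At the low end stood the fructose carrier Slc2a5 at 7.48 TPM, the anion exchanger Slc26a6 at 3.69 TPM, Car12 at 3.06 TPM and the aquaglyceroporin Aqp3 at 0.0933 TPM. The 36 genes together held 1.11% to 1.26% of all TPM in untreated WT colon and 0.177% to 0.302% in the 6 tumour libraries. Aqp3 did not pass the filter on low counts in the colon libraries, so counts within colon are out of 35.

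**Figure D1:**
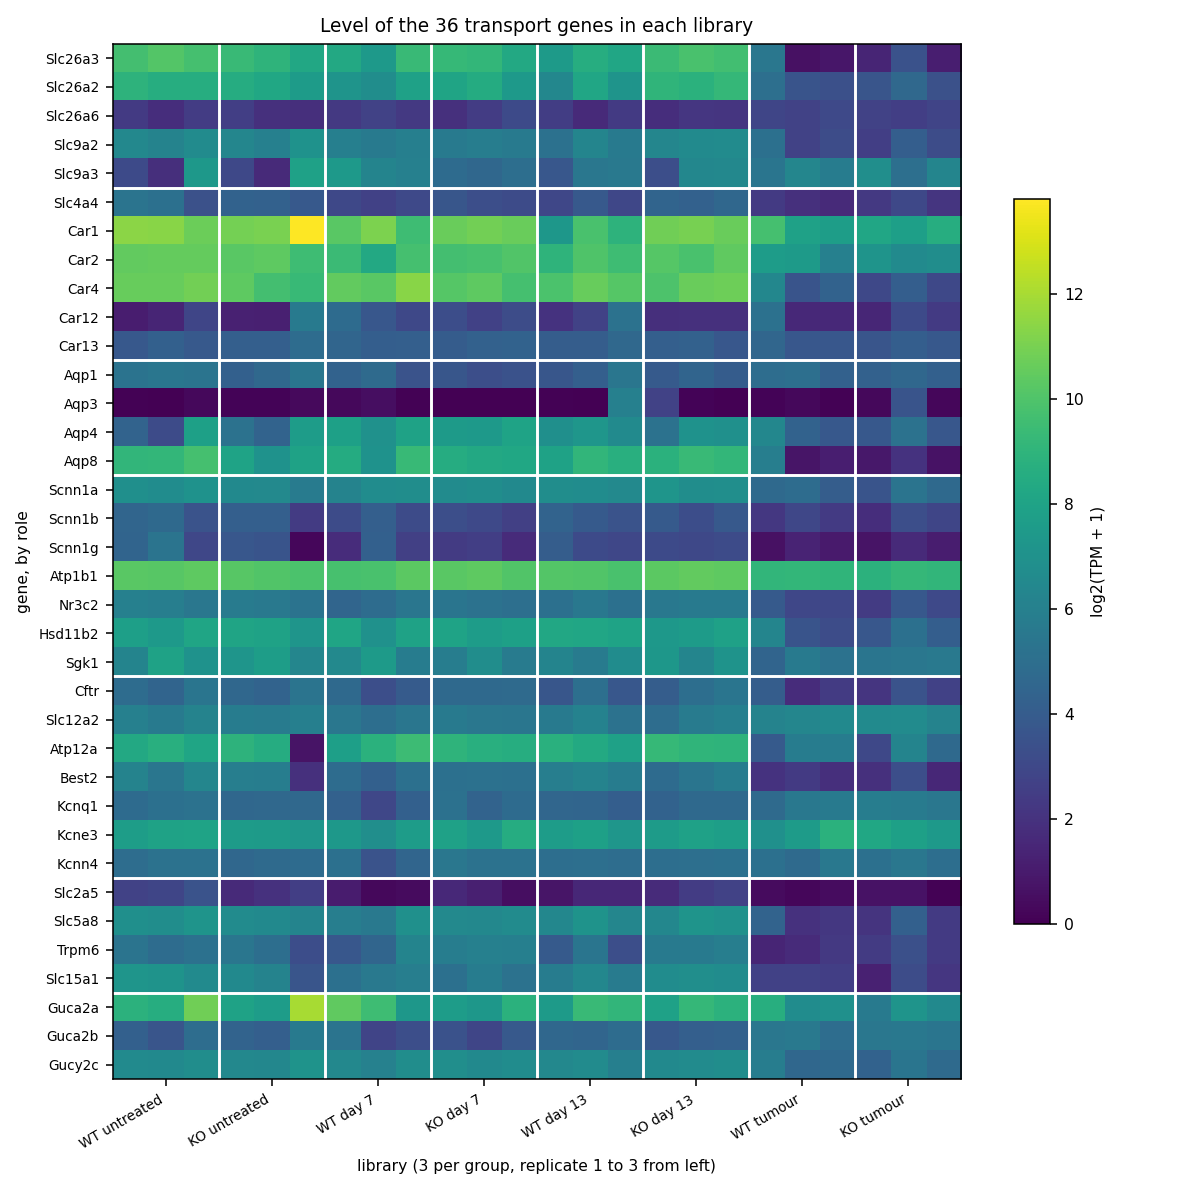
Heatmap of log2(TPM + 1) for the 36 transport genes (vertical axis, by role) in the 24 libraries (horizontal axis, 3 per group). Slc26a3, Car4 and Aqp8 are dark in 5 of the 6 tumour libraries and intermediate in WT tumour replicate 1, while Slc12a2, Kcne3, Kcnq1 and Kcnn4 keep their colour across the groups; untreated KO replicate 3 stands out for Car1, Guca2a, Atp12a and Scnn1g.

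In tumours most of the absorptive genes were far below untreated colon in both genotypes, whereas the basolateral cotransporter and potassium channels of chloride secretion were not called. Of the 36 genes, 23 were called in WT tumours, all lower, where 48.8% of all 19056 genes tested were called and 21.2% were lower. In KO tumours 26 were called, all lower, where 49.9% of all genes were called and 23.5% were lower. Averaged over both genotypes 27 were called, all lower, where 62.9% of all genes were called and 28.4% were lower, and the median change was -2.55 for the 36 genes and 0.07 for all genes. In whole tissue, fewer cells of a type and less RNA per cell cannot be told apart. Summed epithelial markers were 9946 to 12710 CPM in untreated WT colon and 7852 to 11280 CPM in WT tumours, and 12150 to 14390 against 5391 to 9672 CPM in KO. In the mean of both genotypes 5 of 6 markers of the differentiated surface colonocyte fell, from a sum of 5906 to 13880 CPM in the untreated libraries to 689 to 2137 CPM in 5 tumours and 6223 CPM in WT tumour replicate 1. Likewise 5 of 6 goblet cell markers fell, from 5598 to 16800 CPM to 693 to 2208 CPM in 5 tumours and 7147 CPM in WT tumour replicate 1. Of the 5 leukocyte markers 3 rose and 1 fell, with sums of 23.7 to 43.8 CPM in the untreated libraries and 63.2 to 96.2 CPM in the tumours. All 6 smooth muscle markers fell, from a sum of 3467 to 8236 CPM in the untreated colon libraries to 122 to 270 CPM in the tumours. The part of these cell types in the results was not tested.

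Among the apical exchangers, Slc26a3 was at 1479, 2016 and 1554 CPM in the 3 untreated WT libraries and at 73.2, 0.803 and 1.42 CPM in WT tumours, a change of -6.07 ± 1.28 (adjusted p = 0.000772). In KO it went from 1298, 958 and 661 CPM to 2.20, 15.03 and 1.90 CPM, a change of -7.26 ± 1.36 (adjusted p = 0.000271). No tumour library reached any untreated library, and WT tumour replicate 1 stood above the other 5 tumours. Without that replicate the change in WT was -10.56. The sulfate carrier Slc26a2 changed by -4.72 in WT and -4.61 in KO, and the sodium-proton exchanger Slc9a2 by -2.57 and -3.61, again with no overlap. Slc9a3, the other apical sodium-proton exchanger, was at 127, 243 and 172 CPM in WT tumours and 306, 95.8 and 220 CPM in KO tumours, inside the spread of untreated colon (6.54 to 887 CPM), and did not pass. Slc26a6 was at 1.86 to 4.45 CPM in the untreated libraries and 3.46 to 3.86 CPM in the tumours and did not pass either. Its TPM was 2.51 to 4.9 in the untreated libraries and 4.81 to 7.3 in the tumours, so the groups nearly separated on that scale, which was not tested.

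Among the genes that handle acid and base, the apical Car4 had the largest fall in tumours in both genotypes. Car4 was at 1115, 1168 and 1410 CPM in untreated WT colon and at 57.6, 7.40 and 13.2 CPM in WT tumours (-5.56 ± 0.66, adjusted p = 3.55e-06), and went from 1039, 648 and 545 CPM to 4.12, 10.6 and 4.42 CPM in KO (-6.87 ± 0.70, adjusted p = 1.17e-06). The groups were wide apart in both genotypes. Car2 fell by 3.48 and 3.72 in WT and KO, and Slc4a4, the sodium-bicarbonate cotransporter of the blood side, by 3.33 and 2.25. Car1 changed by -2.58 in WT and -4.86 in KO, where untreated replicate 3 alone held 12050 CPM against 1513 and 1599 CPM in the other two. Without that replicate the KO change was -3.16. Car13, a further cytosolic member, was called in KO (-1.07 ± 0.28) and not in WT (-0.02 ± 0.28), and Car12, a membrane-bound member, passed in neither. The difference between genotypes was called for neither gene. Car1, Car2 and Car13 are related genes that lie near each other on chromosome 3, so reads common to them could have been shared out in the counting.

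Aqp8, a water channel of the surface colonocyte, was at 506, 538 and 782 CPM in untreated WT colon and at 51.1, 0.524 and 1.06 CPM in WT tumours (-5.12 ± 1.15, adjusted p = 0.00132). In KO it went from 253, 130 and 266 CPM to 0.574, 2.40 and 0.457 CPM (-7.57 ± 1.33, adjusted p = 0.000153). As with Slc26a3, WT tumour replicate 1 kept the highest tumour level, and without it the WT change was -9.57. Aqp1, a water channel also made by vessels, passed in KO (-0.94 ± 0.36, adjusted p = 0.0401) and not in WT, and the KO call was lost without untreated replicate 3 (-0.47) or tumour replicate 1 or 3. Aqp4, the basolateral channel, was called in the mean of both genotypes (-1.92 ± 0.73, adjusted p = 0.0296) and in neither alone. Without untreated WT replicate 3, 1 of the libraries of low Hoxd13, its change was -0.56 and the call was lost, as it was without untreated KO replicate 3, WT tumour replicate 2 or 3, or KO tumour replicate 1 or 3. Aqp3 was nearly undetected outside the libraries with squamous markers, at 64.9 CPM in WT day 13 replicate 3, 6.74 CPM in KO day 13 replicate 1 and 9.43 CPM in KO tumour replicate 2, and at most 0.320 CPM in the other 21.

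The sodium channel genes and their hormonal control fell together. Scnn1a, the alpha subunit of the epithelial sodium channel, was at 275, 250.4 and 309 CPM in untreated WT colon and 55.7, 58.0 and 33.9 CPM in WT tumours (-2.50 ± 0.35, adjusted p = 1.55e-05), and fell by 2.04 in KO. The beta subunit Scnn1b fell by 2.18 and 1.48 and the gamma subunit Scnn1g by 4.56 and 2.94 in WT and KO, although in KO the low level of untreated replicate 3 (8.09 and 0.481 CPM) made both groups overlap. In KO the Scnn1b call was lost without untreated replicate 1 or 2 or tumour replicate 1 (adjusted p up to 0.0974), and the Scnn1g call without untreated replicate 1 or tumour replicate 1 or 3 (up to 0.0672). Nr3c2, the mineralocorticoid receptor, fell by 2.75 and 2.86, with all 6 tumours (13 to 49.2 CPM) below all 6 untreated libraries (167 to 230.3 CPM). Hsd11b2, which inactivates glucocorticoids and so keeps that receptor for aldosterone, fell by 2.91 and 3.79. Sgk1, a kinase that raises the channel's activity, fell by 2.09 and 1.97, and Atp1b1 by 1.3 and 1.38. All 7 genes of this axis were called in both genotypes.

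Among the genes of chloride secretion, the cotransporter Slc12a2 and the potassium channel genes Kcnq1, Kcne3 and Kcnn4 were not called in tumours, while Cftr, Best2 and Atp12a were lower. Slc12a2, the cotransporter that loads chloride from the blood side, was at 280, 221 and 319 CPM in untreated WT colon and 294, 314 and 381 CPM in WT tumours (0.27 ± 0.26, adjusted p = 0.401), with 267, 252 and 321 CPM against 337, 386 and 267 CPM in KO. Kcnq1, a potassium channel of the blood side, was at 54.6, 67.9 and 73.8 CPM against 44.0, 75.9 and 91.2 CPM in WT, and at 48.7, 50.7 and 55.7 CPM against 85.9, 86.8 and 70.8 CPM in KO (0.65 ± 0.32, adjusted p = 0.0954). Groups overlapped for both genes except for Kcnq1 in KO, where each tumour was above each untreated library. Its partner subunit Kcne3 and the calcium-activated channel Kcnn4 changed by -0.16 ± 0.26 and -0.06 ± 0.20 in the mean of both genotypes, which did not pass. In TPM, which was not tested, KO tumours lay above untreated KO for Slc12a2 (70.87 to 99.49 against 52.22 to 60.6) and Kcnn4 (31.13 to 42.77 against 23.43 to 27.9). Per length, Kcne3 was the third in both tumour groups at 253 ± 169 TPM in WT and 235 ± 62.2 TPM in KO, behind Atp1b1 and Car1. Cftr, the chloride channel of the luminal side, was at 124, 91.1 and 179 CPM against 64.7, 8.87 and 17.1 CPM in WT (-2.12 ± 0.65, adjusted p = 0.0109) and fell by 2.50 in KO. Without WT tumour replicate 3 the WT call was lost (adjusted p = 0.0544), and without replicate 1 the change was -3.34. Best2, a bicarbonate channel on the blood side of goblet cells, fell by 4.46 and 3.50. Atp12a, the proton-potassium pump of the distal colon, fell by 3.22 (adjusted p = 0.0264) and 3.34 (adjusted p = 0.022), but the WT call was lost without untreated replicate 2 or any of the 3 tumours (adjusted p up to 0.087) and the KO call without untreated replicate 1 or tumour replicate 1 or 3 (up to 0.0813). Cftr, Atp1b1, Atp12a, Kcnq1, Kcne3 and Nr3c2 share exon sequence with a gene on the opposite strand, and their reads cannot be told apart where strand was not counted.

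**Figure D2:**
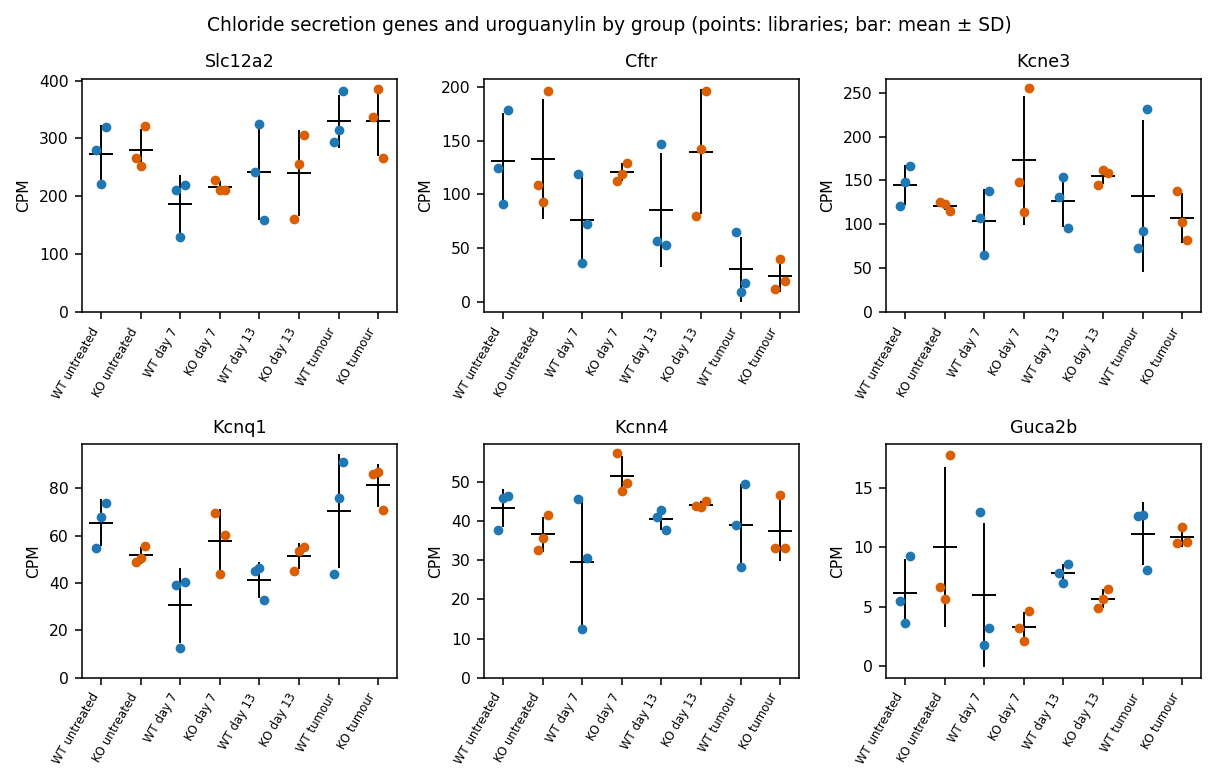
CPM of 5 chloride secretion genes and uroguanylin (Guca2b) in each library (points, WT blue, KO orange) by group, with mean ± SD (black). Slc12a2, Kcne3, Kcnq1 and Kcnn4 in tumours overlap the untreated libraries of their genotype, except that Kcnq1 in KO tumours lies above them, Cftr in tumours lies below the untreated libraries, and Guca2b in the 6 tumours is between 8.07 and 12.8 CPM.

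Nutrient carriers were also low in tumours. Slc15a1, which takes up small peptides, was at 303, 290 and 205 CPM in untreated WT colon and 10.6, 9.60 and 9.27 CPM in WT tumours (-4.76 ± 0.63, adjusted p = 1.03e-05), and fell by 4.12 in KO. Slc5a8, the sodium-coupled carrier of butyrate and other short-chain fatty acids, fell by 3.91 and 3.79. The magnesium channel gene Trpm6 fell by 3.84 and 2.59, and Slc2a5 by 4.92 and 3.49. All 4 were called in both genotypes with no overlap in CPM. In TPM, which was not tested, Trpm6 overlapped in KO, with 8.42 in untreated replicate 3 and 9.44 in tumour replicate 2. In the guanylin axis the receptor Gucy2c fell by 1.63 and 2.25, with 39.5 to 142 CPM in the tumours against 239 to 423 CPM in untreated colon. The ligand guanylin (Guca2a) was called in KO (-4.49 ± 1.14, adjusted p = 0.00338) and not in WT (-2.21 ± 1.03, adjusted p = 0.0843). Its KO call rested on untreated replicate 3 at 1434 CPM, against 79.1 and 62.6 CPM in the other two, and without it the change was -1.60 (adjusted p = 0.126). Uroguanylin (Guca2b) was at 5.46, 3.60 and 9.29 CPM in untreated WT colon and 12.6, 12.8 and 8.07 CPM in WT tumours, and did not pass. In TPM, again not tested, WT tumours (29.19 to 47.33) lay just above untreated WT (11.57 to 29.12).

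**Figure D3:**
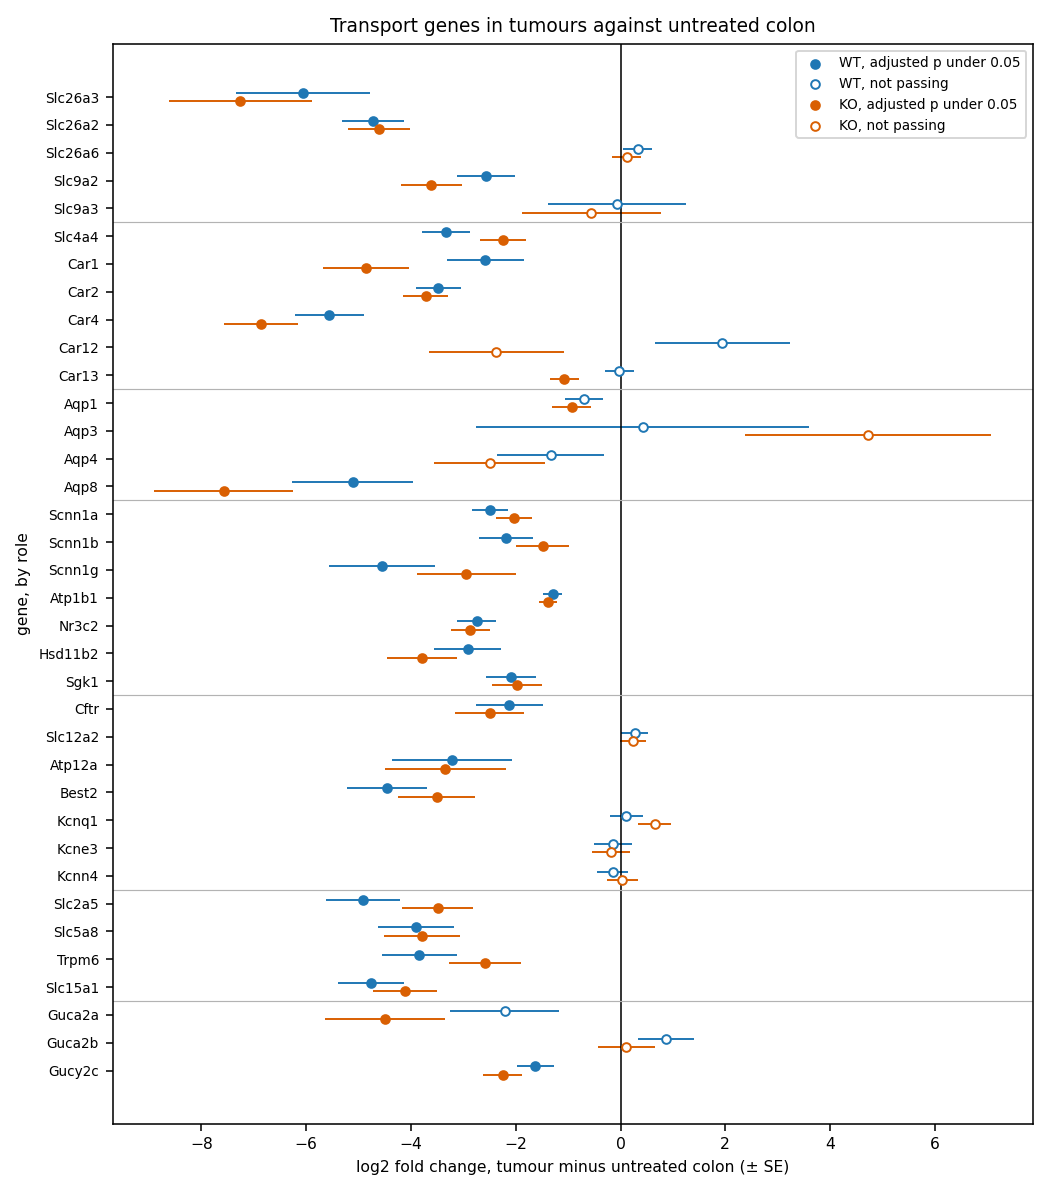
Log2 fold change of tumour against untreated colon (horizontal axis, ± SE) for each of the 36 genes by role (vertical axis), in WT (blue) and KO (orange); filled points passed the adjusted p of 0.05. The sodium channel axis and the nutrient carriers are filled and left of 0 in both genotypes, while Slc12a2, Kcnq1, Kcne3, Kcnn4, Slc26a6 and Slc9a3 are open and near 0.

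Promoter sequence was at hand for 23 of the 36 genes (RefSeq, build GRCm38.p6). Of these, the 3 members with the largest falls in tumours in the mean of both genotypes and 1 that did not pass are shown so that the sequences can be read beside the changes above, each as the 250 bases before the start on the plus strand of its chromosome. Slc26a3 is at chr12:31437969-31438218, Car4 at chr11:84957504-84957753, Aqp8 at chr7:123462044-123462293 and Kcnn4 at chr7:24370013-24370262. Capitals mark the letters CAAAGNNCA, a short form of the site for HNF4, a nuclear receptor of enterocytes.
Slc26a3: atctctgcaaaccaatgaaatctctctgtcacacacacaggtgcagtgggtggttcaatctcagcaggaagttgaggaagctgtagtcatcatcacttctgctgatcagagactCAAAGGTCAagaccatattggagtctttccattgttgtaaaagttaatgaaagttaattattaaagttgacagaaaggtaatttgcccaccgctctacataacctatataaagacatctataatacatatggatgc
Car4: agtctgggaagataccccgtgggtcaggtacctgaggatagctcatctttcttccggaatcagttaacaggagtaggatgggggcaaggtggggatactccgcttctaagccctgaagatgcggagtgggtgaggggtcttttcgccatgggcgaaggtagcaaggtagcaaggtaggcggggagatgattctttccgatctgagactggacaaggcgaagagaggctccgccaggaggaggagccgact
Aqp8: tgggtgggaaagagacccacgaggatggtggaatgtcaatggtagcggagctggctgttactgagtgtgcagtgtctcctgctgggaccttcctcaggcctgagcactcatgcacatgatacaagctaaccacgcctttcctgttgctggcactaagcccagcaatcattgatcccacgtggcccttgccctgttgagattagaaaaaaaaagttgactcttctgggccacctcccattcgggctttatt
Kcnn4: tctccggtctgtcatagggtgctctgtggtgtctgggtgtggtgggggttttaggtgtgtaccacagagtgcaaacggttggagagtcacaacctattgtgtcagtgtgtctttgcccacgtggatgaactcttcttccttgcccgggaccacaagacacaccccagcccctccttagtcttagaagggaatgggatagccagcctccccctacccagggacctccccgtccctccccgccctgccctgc
The HNF4 letters, read on both strands, occurred before 3 of the 23 genes (Slc26a3, Aqp1 and Sgk1) and before 5.49% of all 32851 promoters. A steroid receptor core, ACANNNTGT, occurred before 2 (Car12 and Sgk1) and 5.84% of all promoters. The TCF letters CTTTGAT occurred before 1 (Sgk1) and 3.21% of all, and the CDX letters TTTATNG before none of the 23 and 9.81% of all. A match is a description of the letters and does not show a bound site. Members were counted by gene, with a match in any promoter of the gene, and the share of all was counted by promoter. Those units differ, and Sgk1 has several promoters in the table.

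Whether Axin1 loss moved transport genes within tumours was then asked. None of the 35 genes tested was called, in a comparison in which edgeR called 0% of all 17246 genes and an unadjusted p under 0.05 was reached by none of the 35 and by 653 of all genes (3.79%). DESeq2 called 0 of the 33 it tested and 18 of all genes. In the edgeR fit Axin1 itself was not called (-1.60 ± 0.11, adjusted p = 0.0866), although every KO tumour was below every WT tumour. The lack of calls thus does not show that the genotypes were alike. The response of tumours against untreated colon also differed between genotypes for none of the 36, where 0% of all genes were called.

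On day 7 of DSS colitis, a part of the transport genes was called against untreated colon, all lower. The shares called in either direction were near or below those of all genes. In WT and in the mean of both genotypes the fructose carrier Slc2a5 and the bicarbonate cotransporter Slc4a4 had the smallest adjusted p. In WT colon 6 of 35 were called, all lower, where 16.3% of all 18102 genes were called and 7.77% were lower. In KO colon 1 was called, lower, where 12.6% of all genes were called and 4.07% were lower. In the mean of both genotypes 7 were called, all lower, where 26.1% of all genes were called and 12.2% were lower. With single libraries left out the 3 counts ran from 2 to 9, from 0 to 3 and from 4 to 11. The share of all genes called in those runs is not given here. WT day 7 was all female and 5 of the 6 untreated libraries were male, and with Y-linked expression as a covariate the counts were 1 in WT, 0 in KO and 1 in the mean, where 4.44%, 6.44% and 9.41% of all genes were called. The gene still called in WT and in the mean was Slc2a5 (-3.46 and -2.59). Summed epithelial markers in the day 7 libraries (10130 to 15360 CPM) were within reach of those in the untreated libraries (9946 to 14390 CPM).

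The fructose carrier Slc2a5 was at 9.66, 9.92 and 16.2 CPM in untreated WT colon and 2.33, 0.447 and 0.626 CPM on day 7 (-3.41 ± 0.59, adjusted p = 0.00244), and at 3.84, 4.75 and 8.21 CPM against 2.36, 1.79 and 1.06 CPM in KO (-1.68 ± 0.55, adjusted p = 0.0602). No day 7 library reached an untreated library of its genotype. Slc4a4 was at 206, 182 and 54.4 CPM against 39.4, 27.5 and 45.9 CPM in WT (-2.02 ± 0.41, adjusted p = 0.00535), again with no overlap, and at 106, 107 and 85.3 CPM against 65.5, 51.3 and 48.6 CPM in KO (-0.85 ± 0.40, adjusted p = 0.183). Its lowest untreated WT library was replicate 3, the only female of that group and also its only library of low Hoxd13. Those traits cannot be told apart in that library. In untreated KO the lowest was also replicate 3 (85.3 CPM), of low Hoxd13 and male. With Y-linked expression as a covariate the WT change was -1.06 (adjusted p = 0.145).

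Also called in WT were Slc26a2 (-1.34 ± 0.42, adjusted p = 0.043), Car2 (-1.19 ± 0.36, adjusted p = 0.0344), Kcnq1 (-1.15 ± 0.32, adjusted p = 0.0256) and Nr3c2 (-0.87 ± 0.23, adjusted p = 0.0193). With the Y-linked covariate none of these 4 was called, with changes of -1.25, -1.28, -1.11 and -0.63 (adjusted p 0.111 to 0.191). Kcnq1 on day 7 was at 39.0, 12.3 and 40.5 CPM, and replicate 2, its lowest library, also had the highest smooth muscle marker sum of all libraries (11880 CPM). The calls of Slc26a2 and Car2 were lost without any one library of these groups except day 7 replicate 3 (adjusted p up to 0.133 and 0.0823). That of Kcnq1 was lost without untreated replicate 2 or 3 (up to 0.0757), and that of Nr3c2 without replicate 1 or 2 of either group (up to 0.0755). Aqp1 was the gene called in KO, at 33.3, 45.9 and 85.5 CPM untreated against 21.2, 17.0 and 19.8 CPM on day 7 (-1.50 ± 0.39, adjusted p = 0.0211), and was at 64.4, 73.5 and 67.6 CPM against 35.4, 43.3 and 21.2 CPM in WT (-1.10 ± 0.39, adjusted p = 0.0634). The KO call was lost without untreated replicate 3 (-1.03, adjusted p = 0.084) or without any of the 3 day 7 libraries, and with the Y-linked covariate (-1.47, adjusted p = 0.0875). In the mean of both genotypes Slc2a5, Slc4a4, Aqp1, Car2 and Nr3c2 passed together with Slc9a2 (-0.71 ± 0.21, adjusted p = 0.0226) and Slc15a1 (-0.98 ± 0.35, adjusted p = 0.0492). The calls of Slc9a2, Car2 and Slc15a1 in the mean were lost when certain single libraries were left out, among them KO day 7 replicate 1 (adjusted p up to 0.0602, 0.0888 and 0.145). Of the genes so low in tumours, Slc26a3 (285 to 1347 CPM in WT, 641 to 1145 CPM in KO), Car4 (855 to 2216 and 679 to 1041 CPM) and Aqp8 (110 to 658 and 304 to 353 CPM) were not called on day 7. The genotype difference in the day 7 response was called for none of the 35, where 0% of all genes were called.

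**Figure D4:**
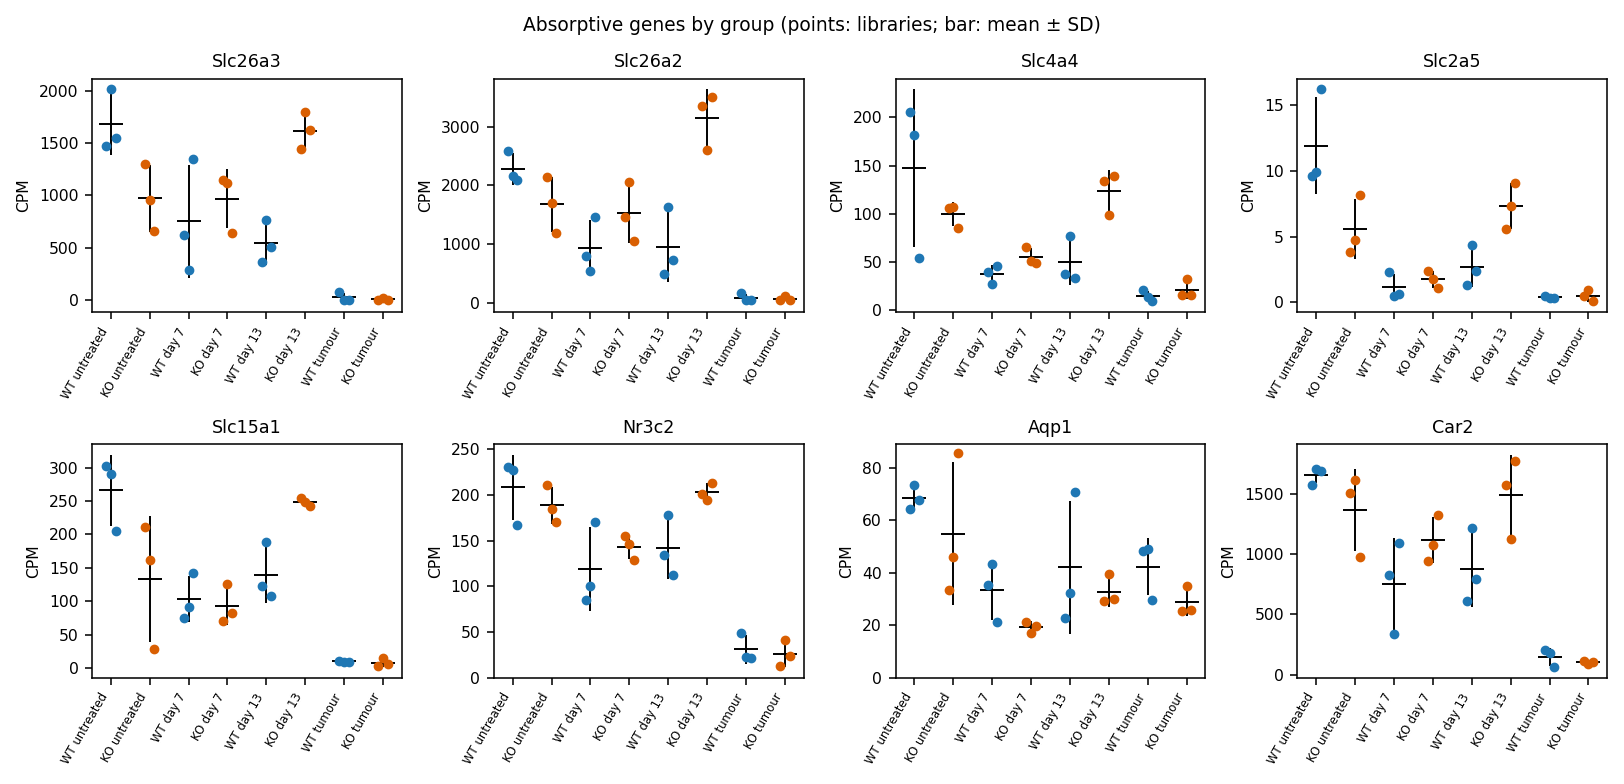
CPM of 8 absorptive genes in each library (points, WT blue, KO orange) by group, with mean ± SD (black). WT day 7 and WT day 13 lie mostly below untreated WT, KO day 13 lies within or above the range of untreated KO for each gene but Aqp1, and the tumour libraries lie near the bottom of every panel but that of Aqp1.

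By day 13 the same 2 genes, Slc4a4 and Slc2a5, were called low in WT and no gene was called in KO. In WT colon 2 of 35 were called against untreated, both lower, where 4.24% of all genes were called and 1.03% were lower, namely Slc4a4, at 38.0, 77.1 and 33.9 CPM (-1.59 ± 0.40, adjusted p = 0.0411), and Slc2a5, at 1.301, 4.39 and 2.42 CPM (-2.16 ± 0.55, adjusted p = 0.0422). Slc26a3, at 359, 762 and 504 CPM, had an adjusted p of 0.0504 (-1.66 ± 0.45). Both calls were lost without day 13 replicate 1, without the squamous replicate 3, or without untreated replicate 1 or 2, and that of Slc2a5 also without untreated replicate 3 (adjusted p up to 0.181 in each gene). With Y-linked expression as a covariate Slc4a4 was still called (-1.76, adjusted p = 0.0171) and Slc2a5 was not (-2.13, adjusted p = 0.0714). Without day 13 replicate 2 the set had 7 calls, in a run whose share of all genes called is not given here. In KO colon none was called against untreated, where 0.0276% of all genes were called, and 6 of 35 had an unadjusted p under 0.05, where 7.62% of all genes did. Untreated KO was all male and KO day 13 all female, so sex and day cannot be told apart there. From day 7 to day 13 none was called in WT (0.0608% of all genes called), where day 7 was all female and day 13 all male. In KO 1 was called, higher, where 12.8% of all genes were called and 4.22% were higher: Slc2a5, from 2.36, 1.79 and 1.06 CPM to 5.57, 7.36 and 9.07 CPM (2.08 ± 0.56, adjusted p = 0.0225), with no overlap. That call was lost without day 7 replicate 2 or 3 or day 13 replicate 2 or 3 (adjusted p up to 0.106), and with the Y-linked covariate the gene called was Slc4a4 (1.53, adjusted p = 0.00859) instead.

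Set directly against each other at day 13, KO had more Slc26a2 than WT, at 3347, 2600 and 3503 CPM against 493, 1625 and 724 CPM (1.74 ± 0.43, adjusted p = 0.0442), the only call among the 35, where 2.51% of all genes were called and 0.652% were higher. Every KO library was above every WT library. The same order held for Slc26a3, at 1446, 1797 and 1624 CPM against 359, 762 and 504 CPM (1.59 ± 0.45, adjusted p = 0.0758), and for Slc4a4, at 134, 99.1 and 139 CPM against 38.0, 77.1 and 33.9 CPM (1.33 ± 0.40, adjusted p = 0.0931). In all, 12 of the 35 had each KO library above each WT library, where 11.5% of all genes did, and 10 had an unadjusted p under 0.05, where 18.2% of all genes did. The Slc26a2 call was lost without WT replicate 1 or 3 or any of the 3 KO libraries (adjusted p up to 0.184), and without both squamous libraries its change was 1.53 (adjusted p = 0.383). The WT mice of this comparison were male and the KO mice female, so sex and genotype cannot be told apart, and with Y-linked expression as a covariate the Slc26a2 change was 1.85 (adjusted p = 0.278). Summed fibroblast markers were 753 to 1999 CPM in WT and 284 to 534 CPM in KO, and summed leukocyte markers 39.9 to 174 CPM against 19.6 to 38.1 CPM, with no overlap in either. Of the 5 markers in each list, 1 fibroblast and 2 leukocyte markers were called lower in KO, and their part in these results was not tested. The genotype difference in the day 13 response was called for none of the 35, where 0.011% of all genes were called. An unadjusted p under 0.05 was reached by 12, among them Slc26a3 (2.40 ± 0.63, adjusted p = 0.123), Slc26a2 (2.20 ± 0.59, adjusted p = 0.13) and Slc2a5 (2.56 ± 0.76, adjusted p = 0.169), where 13.5% of all genes reached it. By their markers KO went from all male untreated to all female at day 13, and WT from mixed to all male. Sex and genotype thus cannot be told apart in this difference either.

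Without DSS none of the 35 genes was called between genotypes, where 0.011% of all genes were called. The smallest p was that of Aqp8, at 253, 130 and 266 CPM in KO against 506, 538 and 782 CPM in WT (-1.52 ± 0.47, adjusted p = 0.611), with no overlap. By the CPM given above, Slc26a3, Car4 and Slc2a5 were also lower in each KO library than in each WT library. Of all genes, 8.83% had that order. It also held in TPM, which was not tested, for Scnn1a (52.73 to 94.54 against 104.52 to 129.96) and Slc5a8 (73.64 to 99.51 against 109.42 to 139.05), among others. How many of the 35 had it in CPM is not given here, so the set cannot be compared with that share. These untreated levels enter the genotype difference in the day 13 response. On day 7 none was called between genotypes either, where 0.00552% of all genes were called. Kcnq1 (0.95 ± 0.32, adjusted p = 0.0871), Kcnn4 (0.83 ± 0.29, adjusted p = 0.0956) and Kcne3 (0.77 ± 0.28, adjusted p = 0.106), the potassium channel genes, had the smallest p. Only these 3 of the 35 had an unadjusted p under 0.05, where 27% of all genes did. Kcnn4 was at 57.5, 47.7 and 49.8 CPM in KO and 45.7, 12.5 and 30.7 CPM in WT, so the KO libraries lay above, with replicate 2 the lowest WT library. Each KO library was above each WT library for 12.2% of all genes. Without WT day 7 replicate 3 the count was 6. In the mean over the 3 colon conditions none was called, where 4.84% of all genes were called, and 4 were called without WT day 7 replicate 3. For both counts without that replicate the share of all genes called is not given here.

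Part of the spread in untreated colon went with the libraries of low Hoxd13. Slc9a3 was at 537 CPM in replicate 3 of untreated WT, 887 CPM in replicate 3 of untreated KO and 607 CPM in replicate 1 of WT day 7, and at 6.54 to 311 CPM in the other 15 colon libraries. Guca2a was at 538, 1434 and 448 CPM in these 3 libraries and at 51.0 to 207 CPM in the others, and Guca2b at 9.29, 17.8 and 12.95 CPM against 1.79 to 8.60 CPM. These 3 of 35 genes were higher in each of the 3 libraries than in any other colon library, as were 0.575% of all genes tested. Untreated KO replicate 3, where Hoxd13 was at 0.0801 CPM, also had Car12 at 136 CPM against 2.73 to 81.3 CPM in the 15 libraries. In the opposite direction it had Atp12a at 2.08 CPM against 618 to 2160 CPM, Best2 at 4.16 CPM against 21.7 to 97.3 CPM, and Scnn1g at 0.481 CPM against 5.02 to 79.6 CPM. Of the other posterior Hox genes listed, Hoxd12 was also lower in each of the 3 libraries (0 to 1.87 CPM) than in the other 15 (2.09 to 35.8 CPM). Hoxb13 (2.64 to 344 against 157 to 598 CPM) and Hoxa13 (43.1 to 65.4 against 57.1 to 133 CPM) overlapped. The sources used here do not say which segment of the colon was sampled.

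**Figure D5:**
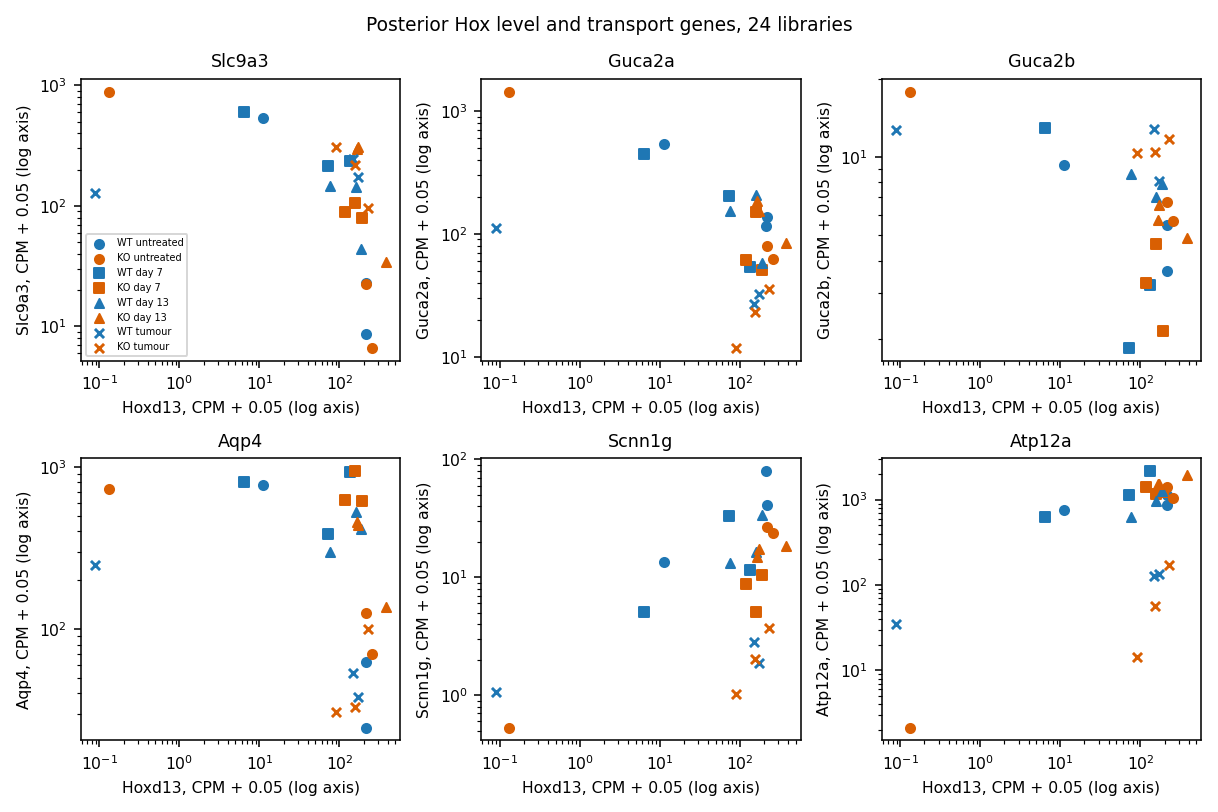
CPM of 6 transport genes (vertical log axes, 0.05 added) against CPM of Hoxd13 (horizontal log axes, 0.05 added) in the 24 libraries, with colour for genotype and marker for condition. The 3 colon libraries on the left of each panel, with Hoxd13 under 20 CPM, are highest among colon libraries for Slc9a3, Guca2a and Guca2b, and the leftmost colon library is lowest for Scnn1g and Atp12a.

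Leaving out the 4 libraries, a choice made after seeing the data, changed which genes were called. On day 7 in the mean of both genotypes 12 of 35 were then called, where 25.4% of all genes were called, and 3 of them were higher than untreated: Slc9a3 (3.21), Car12 (2.63) and Aqp4 (3.37). Slc9a3 in the remaining untreated libraries lay at 6.54 to 22.9 CPM, and in the remaining day 7 libraries at 79.0 to 234 CPM. Aqp4 was at 24.6 to 126 CPM against 385 to 940.3 CPM. In neither gene did the remaining groups overlap, but the untreated libraries left out were the highest of their groups in both genes. The remaining untreated libraries were all male by their markers, and the remaining day 7 libraries were female except KO replicate 1. Sex and day 7 were thus largely confounded in this fit. The untreated groups and WT day 7 were also smaller by the libraries left out. Scnn1b (-1.15), Scnn1g (-1.57), Best2 (-0.95) and Guca2b (-0.90) were among the 9 lower ones. In tumours 27 were called in the mean of both genotypes, where 60.5% of all genes were called. Slc9a3 (3.78) and Guca2b (1.01) were then higher than in the remaining untreated libraries, and Slc26a3 (-9.04), Aqp8 (-8.38) and Car4 (-6.92) lower. The untreated libraries left out were the highest of their groups in Slc9a3 and Guca2b, so leaving them out pushed those changes upward. WT tumour replicate 1, also left out, was the highest tumour in Slc26a3, Aqp8 and Car4. The remaining untreated libraries were all male and the remaining tumours of both sexes. Between genotypes on day 7 Kcnn4 was then called (1.29), where 6.32% of all genes were called.

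A further 68 genes of epithelial transport and its control, not members of the set, were counted in the same fits. In the mean of both genotypes 38 of the 65 tested fell in tumours, where 28.4% of all genes were lower, and 14 rose, where 34.5% of all genes were higher. The carbonic anhydrase gene Car14 (-6.88 ± 0.77), the calcium-binding protein gene S100g (-5.55 ± 0.83), the vitamin D receptor Vdr (-3.59 ± 0.35) and the lactate and butyrate carrier Slc16a1 (-2.35 ± 0.23) were among those that fell. Of those that rose, the anion transporter Slc26a9 was at 5.68 to 11.95 CPM in the 6 tumours and at most 0.0400 CPM in the untreated libraries, and Abcc4, an exporter of cyclic nucleotides, was at 70.6 to 155 CPM against 12.8 to 34.6 CPM. On day 7 12 of 62 fell in the mean of both genotypes, with Vdr (-1.13 ± 0.19) and Aqp11 (-1.46 ± 0.21) among them, and 3 rose (Aqp5, P2ry2 and St14), where 12.2% of all genes were lower and 13.9% higher. From day 7 to day 13 in KO 5 of 62 rose and 1 fell, where 4.22% of all genes were higher and 8.61% lower, with Vdr again among the risers (1.35 ± 0.27, adjusted p = 0.00373). Between genotypes none was called in untreated colon, on day 7 or in tumours, and at day 13 S100g was higher (4.99 ± 1.15, adjusted p = 0.0348) and Hsd11b1 lower (-1.57 ± 0.38, adjusted p = 0.0413) in KO.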

How the data were processed

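Per the labels' protocols, Trizol was used to extract the RNA and the libraries followed Illumina's standard preparation. The submitters' processing notes name STAR 2.7.6a, RSEM 1.3.1 and the build GRCm38. The authors deposited 1 table per library with expected counts (RSEM's estimate of the reads of a gene) and TPM, per the file headers. The sources used here do not give the strand setting or the sequencing run of each library.

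For testing, the expected counts were rounded. The test was edgeR 4.0.16 in R 4.3.3 (quasi-likelihood F test, TMM factors, minimum count 10, minimum total 15, robust estimation), with Benjamini-Hochberg adjustment over all genes of a comparison and a threshold of 0.05. Comparisons within colon used the 18 colon libraries, those between tumours the 6 tumour libraries, and tumours against colon all 24. It was tested on simulated counts. DESeq2 1.42.0, RLE factors, no filter, Y-linked expression (prior count 2) as a covariate and leaving out each library were alternatives. A further 2 were added after seeing the data: leaving out the 4 libraries with Hoxd13 under 20 CPM, or the 2 colon libraries with Krt14 over 100 CPM. Replicates were numbered by accession order. The members and gene lists were chosen with earlier results of these data known, every member is accounted for, and a gene was named where it passed, passed elsewhere, or had the smallest p of its role group. Gene positions are from GENCODE M21.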

Additional observations from a re-analysis of the deposited data

How the results depend on the processing

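No paired analysis was possible because the replicate numbers follow accession order and pair no libraries. RLE factors kept all 18 counts of called genes within 1.5 times. Of the 34 members it tested within colon, DESeq2 called 2 between genotypes on day 7 (13.7% of all genes called), 4 at day 13 (7.13%) and 2 in the colon mean (13.8%), 5 for KO day 7 (16.9%), 5 for WT day 13 (10.2%), 4 from day 7 to 13 in KO (17.2%), and 4 for the genotype difference in the day 13 response (Slc26a3, Slc26a2, Slc4a4 and Slc2a5, where 3.11% of all genes were called). Without the filter the counts were 0 between genotypes at day 13 (0.874% of all genes called) and 3 for WT day 7 (6.34%). For WT day 13 the count was 0 (1.56%). The Y-linked covariate gave 0 between genotypes at day 13 (0.00552% of all genes called), 1 for WT day 7 (4.44%) and 0 for KO day 7 (6.44%). It gave 1 for the day 7 mean (9.41%) and 1 for WT day 13 (2.66%). Without the low Hoxd13 libraries the counts were 1 between genotypes on day 7 (6.32% of all genes called) and 4 for KO day 7 (12%). They were 12 for the day 7 mean (25.4%) and 6 for WT day 13 (3.38%). Without the squamous libraries they were 0 between genotypes at day 13 (0.0217%) and 0 for WT day 13 (1.93%).

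Leaving out each library in turn gave 0 to 6 calls between genotypes on day 7, 0 to 4 at day 13 and 0 to 4 in the colon mean, 2 to 9 for WT day 7 (2 without untreated WT replicate 2), 0 to 3 for KO day 7 and 4 to 11 for the day 7 mean (11 without untreated KO replicate 3). It gave 0 to 7 for WT day 13, 0 to 1 from day 7 to 13 in KO, and 0 to 2 for the genotype difference in the day 13 response. Tumour counts stayed at 21 to 23 in WT, 22 to 27 in KO and 25 to 27 in the mean. The share of all genes called in each of these runs is not given here, so the ranges describe the member counts only.

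Without the low Hoxd13 libraries Slc9a3, which was not called before (-0.31 in tumours and -0.45 on day 7, means of both genotypes), was called higher (3.78 and 3.21). The untreated libraries left out were the highest of their groups in that gene. Other changes of sign were followed for named genes that were not called. With each library left out in turn, Car1 between untreated genotypes ran from -0.12 to 1.99, Car12 between untreated genotypes from -1.06 to 3.86, Guca2a for KO day 7 from -3.21 to 0.32, Car12 for KO day 13 from -3.19 to 1.06, and Car12 for the genotype difference on day 7 from -4.88 to 0.037, each with the change of sign without untreated KO replicate 3. Without the low Hoxd13 libraries the signs changed for Car1 (-0.31, KO against WT, untreated), Guca2a (0.31, KO day 7), Car12 (1.07, KO day 13), and Car1 (0.61) and Car12 (0.89) in the genotype difference of the tumour response. The cause of these changes was not tested. With 3 libraries a group, small changes of genes near the filter, such as Slc2a5, Scnn1g and Guca2b, were the least precise.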

Other observations

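Genes of calcium uptake and of the cyclic GMP signal below the guanylin receptor showed their own patterns, given as values. The vitamin D receptor Vdr was at 468 to 651 CPM in the 6 untreated libraries, 126 to 332 CPM in the 6 day 7 libraries, 319 to 505 CPM in WT day 13, 687 to 1003 CPM in KO day 13, and 24.1 to 94.1 CPM in tumours. The calcium-binding protein gene S100g was at 108 to 208 CPM in the KO day 13 libraries, which were all female, and at 3.57 to 8.7 CPM in the WT day 13 libraries, which were all male. Untreated KO libraries, all male, had it at 65.0 to 226 CPM, and untreated WT libraries at 7.38 to 69.8 CPM.

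Prkg2, the cyclic GMP-dependent kinase that acts on Cftr, was at 33.0 to 124 CPM in the 6 tumours. In colon it was at 48.4 CPM in untreated KO replicate 3, 11.2 CPM in WT day 7 replicate 1 and 2.62 CPM in untreated WT replicate 3, the 3 colon libraries of low Hoxd13, and at most 2.62 CPM in the other 15. Cdx2, an intestinal identity factor, was at 335, 149 and 75.4 CPM in the same 3 libraries and at 9.31 to 65.9 CPM in the others.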
